A study of Homo sapiens with 12 samples.

Results

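The interaction of Wee1 inhibitor II and 17-AAG is the amount by which the change with both drugs departed from the sum of the changes with each drug alone. On the log2 scale it is (both drugs minus 17-AAG) minus (Wee1 inhibitor II minus control), so a value of 0 means that the drugs multiplied each other's effect on a signal. It was described for the genes whose geometric mean signal reached 100 in at least 1 group, which were 8952 of the 19775 genes tested. Of these, 7519 reached 100 in every group and 444 in only 1. For a gene that reached 100 in only 1 group, the rule itself favours the sign of interaction that a high signal in that group gives. Examples among the genes named below are CXCL8, IFITM1, LIF, CDKN1A, DOCK11 and HES4 (Wee1 inhibitor II) and MET (both drugs). Others are CDC25C (17-AAG), ZSCAN5A and PUS7L (control). The genes nearest that limit were MCM9 at 99.98 (interaction 0.10 ± 0.17, SE), ZNF93 at 99.89 (-0.64 ± 0.25) and TMEM161B-DT at 99.86 (0.67 ± 0.50) outside it, and ELOA-AS1 at 100.1 (-0.18 ± 0.24), SIK2 at 100.2 (0.21 ± 0.16) and PCDHB8 at 100.2 (0.64 ± 0.33) inside it.

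The cells carry the label PC3, the name of a prostate cancer line, and their RNA was read on Affymetrix 3-prime arrays. The comparison used 2 control arrays (replicates 1 and 3), 3 of cells given 2.5 µM Wee1 inhibitor II, 3 of cells given 40 nM 17-AAG, and 3 of cells given both at these doses. Wee1 inhibitor II came first, 17-AAG followed 24 h later, and harvest was 48 h after that. The controls received vehicle per the treatment protocol and are called untreated in the design text. Control replicate 2, removed by the submitters for weak signal, was left out here, so the comparison rests on 11 of 12 arrays, and their number limits the precision. The study's title names a question of sensitisation, in which blocking Wee1 would make an Hsp90 inhibitor act more strongly through intrinsic apoptosis.

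The markers on the 11 arrays went against the label. The melanocyte genes MLANA (2865 to 9916) and PMEL (3694 to 9203) were bright on every one. STAT3 (819 to 1296) and CTNNA1 (2559 to 5040 on the 11 arrays), which PC3 cells lack by deletion, were bright as well. EPCAM (5.33 to 26.2), HOXB13 (2.14 to 11.3) and KRT8 (25.8 to 45.5), which epithelial prostate cells express, were dim, whereas KRT18, the keratin partner of KRT8, was bright (453 to 650 on the 11 arrays). The 11 arrays correlated with each other at r of 0.913 or more across probe sets and the median interaction of all genes was -0.03. The gap between the 3-prime and 5-prime ACTB probe sets, a sign of RNA quality, was 0.69 ± 0.03 (log2, SD, n = 2) in control and 0.68 ± 0.09 (n = 3) with Wee1 inhibitor II. It was wider in the groups given 17-AAG, 0.96 ± 0.08 (n = 3) alone and 0.96 ± 0.05 (n = 3) in combination. Its interaction was 0.01. Of the genes tested that Hsp90 inhibitors are known to induce, most were not raised on the arrays labelled 17-AAG, as given with the heat shock list. HSPA1A, HSPA1B, HSPA8 and AHSA1, all of that list, were not among the genes tested. Drug names are therefore those of the labels, and no value here tells whether Hsp90 was blocked on these arrays.

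Wee1 is the kinase that holds CDK1, the engine of mitosis, inactive until DNA replication is finished, and a cell without it can enter mitosis early. Hsp90 is a chaperone whose clients include many kinases, Wee1 among them, and 17-AAG blocks it. Departures from the sum of the effects fall into kinds. In synergy, the combination goes beyond each drug and beyond their sum. In saturation, each drug alone moves a gene the same way and the combination falls short of their sum. In reversal, adding the other drug takes back the change made by a drug alone.

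The interaction passed an adjusted p under 0.05 (limma, Benjamini-Hochberg over all genes) for 2065 of the 8952 genes, 23.1%, against 11.8% of all genes tested. It was higher for 859 (9.60%) and lower for 1206 (13.5%). The median SE was 0.16 for the interaction and 0.12 for a single drug. Alone, Wee1 inhibitor II changed 4060 of the 8952 genes against control (45.4%) and 17-AAG changed 2884 (32.2%). Both drugs together changed 4539 against control (50.7%), 2440 against Wee1 inhibitor II (27.3%) and 3170 against 17-AAG (35.4%). The called genes were sorted by these calls into 351 of synergy (17.0%), 706 of saturation (34.2%) and 803 of reversal (38.9%). In a further 56 (2.71%) the single drugs had moved the gene in opposite directions, and 149 (7.22%) met none of these conditions.

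Most called interactions, 1830 of 2065, ran against the sum of the single-drug changes. The share called was largest, 54.5%, where both drugs had moved a gene the same way. Of the 1029 genes that each drug raised, the interaction was called for 577, and in 576 of these it ran against the rise. Their median sum was 1.59 and their median change with both drugs 0.97. Of the 764 genes that each drug lowered, 400 were called, 365 against the fall and 35 with it. Where only Wee1 inhibitor II was called, 491 of 2085 genes (23.5%) had an interaction, 433 of them against the sum. Where only 17-AAG was called, 247 of 909 (27.2%) did, 223 against. Where the drugs were called in opposite directions, 56 of 182 (30.8%) did, 43 against. Where neither drug alone was called, 294 of 3983 genes (7.38%) had an interaction, 190 against. The single-drug changes and the interaction share the same 2 control arrays, so an error in the control mean moves both single-drug changes one way and the interaction the other. Grouping genes by their single-drug calls thus itself favours an interaction against those changes. Without control replicate 1 the counts were 1151 called, 256 synergy, 304 saturation and 483 reversal, and without control replicate 3 they were 1138, 262, 289 and 462. Saturation also fell to 410 without 17-AAG replicate 1, 427 without 17-AAG replicate 3 and 460 without Wee1 inhibitor II replicate 3, and the called total to 1353 without 17-AAG replicate 1. The synergy count was between 242 and 286 with any 1 array left out.

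**Figure D1:**
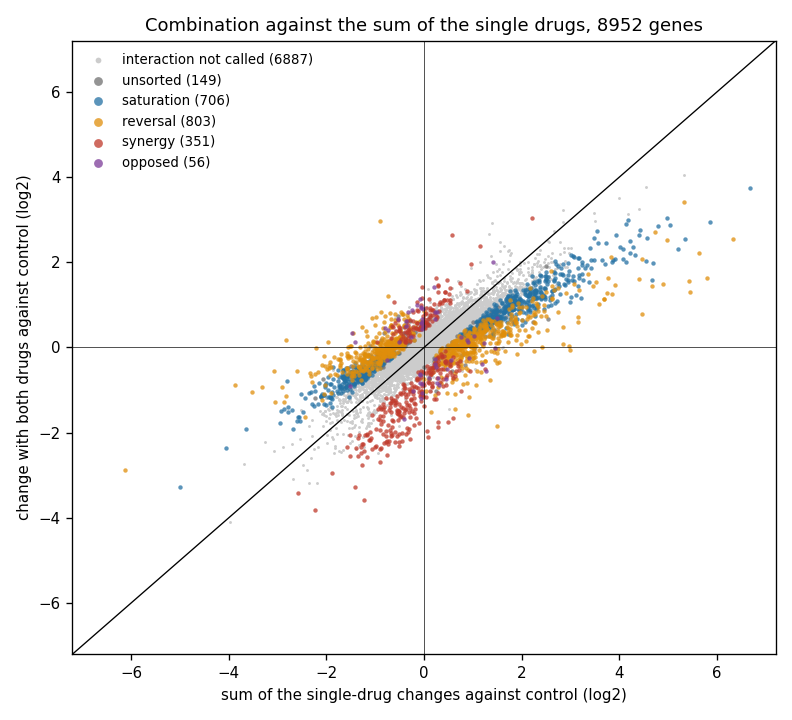
Change with both drugs against control (y axis, log2) plotted over the sum of the changes with each drug alone (x axis, log2) for 8952 genes, with the line of equality and each called gene coloured by its sort. Saturation (706) and reversal (803) genes lie between the line and the x axis or beyond that axis, and synergy genes (351) lie on the far side of the line, most of them below it.

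Synergy was made up mainly of falls: 240 of its genes went lower and 111 higher. In the 240, the median change was -0.17 with Wee1 inhibitor II and -0.12 with 17-AAG, which sum to a median of -0.31, but -1.30 with both drugs. In 147 of the 240 neither drug alone was called, and 222 fell with both drugs against control. Genes of cell division were among them: 66 of the 240 were in at least 1 of 3 lists, for mitosis, replication and the G2 checkpoint, that hold 127 members. Of the 52 genes of mitosis and G2/M, all bright enough to be members, 47 were called (90.4%, against 23.1% of all members). All 47 were lower, 45 of them in synergy and 2, TOP2A and NEK2, in reversal. The median interaction of these 52 was -1.19, against -0.01 over the 8952 genes, and 51 of the 52 fell with both drugs against control. With 1 array left out the synergy count of 45 was 38 to 42. In bulk RNA, fewer dividing cells and less of these RNAs per cell cannot be told apart.

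Promoters of 4 such genes show the letters that mitotic promoters are known for, the CCAAT box and the cell cycle homology region (CHR, TTTGAA), which are bound by NF-Y and by the DREAM and MuvB complexes. They are shown because their genes fell further with both drugs than with either alone, as described next. The letters are from RefSeq (GRCh38.p14), 5′ to 3′ along the gene and ending at the base before its start, with CCAAT and TTTGAA in capitals, and with ATTGG in capitals where CCAAT lies on the other strand.
CCNB2 (chr15:59105016-59105145, plus strand): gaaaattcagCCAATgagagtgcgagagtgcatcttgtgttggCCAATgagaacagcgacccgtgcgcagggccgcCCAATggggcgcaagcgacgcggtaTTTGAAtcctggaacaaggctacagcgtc
PRC1 (chr15:90994536-90994635, minus strand): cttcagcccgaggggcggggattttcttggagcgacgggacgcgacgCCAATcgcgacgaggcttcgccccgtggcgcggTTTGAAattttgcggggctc
KIF4A (chrX:70290004-70290103, plus strand): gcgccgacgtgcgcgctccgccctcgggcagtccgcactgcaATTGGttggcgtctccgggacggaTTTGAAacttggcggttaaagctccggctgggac
PLK1 (chr16:23678789-23678888, plus strand): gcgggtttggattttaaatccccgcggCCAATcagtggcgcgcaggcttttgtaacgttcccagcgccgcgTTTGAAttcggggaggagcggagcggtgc
Searched on both strands over the 250 bases before the start, TTTGAA was found in 22 of 44 mitosis genes with a promoter in the table and in 52 of 189 synergy genes that went lower (27.5%). It was in 8.66% of the 7526 members and 10.6% of all 15382 genes with a promoter. CCAAT was in 77.3% of the mitosis promoters and 55.0% of the lower synergy promoters, against 36.5% of members and 34.1% of all. A match of letters is a description and shows no binding.

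CDK1, the mitotic kinase itself, had signals of 3294 and 4192 on the control arrays, 3784, 2772 and 3746 with Wee1 inhibitor II, 4039.9, 4499.7 and 4218 with 17-AAG, and 1102, 965 and 837 with both drugs. The 3 arrays with both drugs lay below the other 8. Its interaction was -2.01 ± 0.24 (adjusted p = 0.00254), so the combination stood 4.04-fold below the product of the single-drug changes. CENPA, the histone H3 variant that marks centromeres, read 606 and 522 in control, 634, 683 and 495 with Wee1 inhibitor II, 721, 591 and 617 with 17-AAG and 154, 145 and 167 with both (interaction -2.14 ± 0.21 (adjusted p = 0.00137)). DIAPH3, a formin that nucleates actin filaments, held its level still more closely in the first 3 groups. Its signals were 705 and 713 in control, 676, 705 and 689 with Wee1 inhibitor II, 733, 757 and 813 with 17-AAG and 159.7, 171 and 163 with both drugs, an interaction of -2.18 ± 0.11 (adjusted p = 0.000176). PRC1, which bundles spindle midzone microtubules, read 2163 and 2348 in control, 2242, 2287 and 2262 with Wee1 inhibitor II, 2039, 2182 and 2021 with 17-AAG and 662, 639 and 671 with both (interaction -1.67 ± 0.10 (adjusted p = 0.000389)).

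In other genes the combination extended a fall that a single drug had begun. E2F8, an E2F family repressor that acts at the G1/S boundary, had the largest synergy among genes with a signal of 32 or more in every group. It read 575 and 493 in control, 306, 337 and 303 with Wee1 inhibitor II, 368, 387 and 393 with 17-AAG and 41.4, 48.4 and 44.2 with both drugs. Its 4 groups did not overlap, and the change of -3.58 with both drugs exceeded the sum of the single changes, -1.23 (interaction -2.35 ± 0.14 (adjusted p = 0.000378)). KIF4A, a chromosome-associated kinesin, changed by -0.37 with Wee1 inhibitor II, -0.40 with 17-AAG and -2.20 with both (interaction -1.43 ± 0.10 (adjusted p = 0.000542)). BIRC5, which codes for the chromosomal passenger and apoptosis inhibitor survivin, changed by -0.36, -0.42 and -2.22 in the same order (interaction -1.45 ± 0.13 (adjusted p = 0.000961); -0.95 with the mean of its probe sets). Other genes near the top of the synergy ranking were the kinesin KIF15 (-2.23 ± 0.19) and the mitotic regulator PIMREG (-2.03 ± 0.15). The phosphatase gene CDC25C, which switches CDK1 on, was at -2.24 ± 0.23 and the separase gene ESPL1 at -1.53 ± 0.11. MKI67, the proliferation marker, had an interaction of -1.86 ± 0.41 (adjusted p = 0.0253). That call was lost without control replicate 1, without any 1 of the 3 Wee1 inhibitor II arrays, without 17-AAG replicate 1 or 3, and with arrays centred on their medians.

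The genes around the drug's own target fell with the rest. WEE1 read 758 and 822 in control, 867, 992 and 999 with Wee1 inhibitor II, 849, 737 and 831 with 17-AAG and 362, 401 and 371 with both drugs. Neither drug alone lowered it and the combination lowered it by 1.06 on the log2 scale (interaction -1.36 ± 0.14 (adjusted p = 0.00156)). CCNB2 (cyclin B2) had group means of 2394 in control, 2665 with Wee1 inhibitor II, 2209.5 with 17-AAG and 1073 with both, an interaction of -1.20 ± 0.10 (adjusted p = 0.000891). With the mean of its probe sets the CCNB2 interaction was -0.26 and was not called (adjusted p = 0.883). CCNB1 (cyclin B1) had an interaction of -0.91 ± 0.11 (adjusted p = 0.00255) and PLK1, the Polo-like kinase that marks Wee1 for destruction, -0.998 ± 0.12 (adjusted p = 0.00236). Of 24 genes of Wee1, CDK1 and the G2 checkpoint, 11 were called (45.8%, against 23.1% of all members). Of these 11, 10 were lower and 1 higher, with 9 in synergy, and the median of the 24 was -0.47. CDK2 (0.71 ± 0.15), the S phase kinase, was the higher one and was sorted to reversal.

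Replication genes fell with each drug and further with both, and fewer of them departed from the sum. Of 58 members among the genes of DNA replication and G1/S, 39 fell with Wee1 inhibitor II, 27 with 17-AAG and 56 with both drugs. The interaction was called for 19 of 58 (32.8%, against 23.1% of all members), 18 of them in synergy, and the median was -0.43. Without control replicate 1 the count of 19 was 12, and with arrays centred on their medians it was 11. TYMS, thymidylate synthase, read 7182 and 7519 in control, 5059, 5604 and 4819.8 with Wee1 inhibitor II, 5674, 6814 and 6029.7 with 17-AAG and 1287, 1201 and 1345 with both drugs (interaction -1.76 ± 0.15 (adjusted p = 0.000868); -1.17 with the mean of its probe sets). RRM2, the regulated subunit of ribonucleotide reductase, fell from a mean of 4666 in control to 2189.8 with Wee1 inhibitor II, 2120.1 with 17-AAG and 329.6 with both (interaction -1.59 ± 0.15 (adjusted p = 0.00111)). Its departure is one of ratios: in linear signals the interaction of RRM2 had the opposite sign, at 676. PRIM1, the DNA primase subunit, had an interaction of -1.38 ± 0.11. CCNE1 (cyclin E1, 0.77 ± 0.20) was the 1 called replication gene outside synergy and was in the saturation sort.

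Synergy in the other direction was rarer and smaller. In the 111 genes that went higher the median change with both drugs was 0.61 and the median interaction 0.71, and 93 of them rose with both against control. In 89 of the 111 neither drug alone was called. MET, the receptor for hepatocyte growth factor and a client of Hsp90, was the largest among genes with 32 or more in every group. It was a member only through the group given both drugs (mean 348), so the member rule itself favours a higher interaction. It read 49.9 and 63.7 in control, 68.3, 58.6 and 37.4 with Wee1 inhibitor II, 86.4, 83.6 and 99.5 with 17-AAG and 368, 378 and 304 with both drugs, so that the combination arrays lay above all others. Its interaction was 2.05 ± 0.33 (adjusted p = 0.0077), and it was not called with the mean of the gene's probe sets. Members of the lists in this sort were few: TPM2, a tropomyosin (1.24 ± 0.28), and CTSD, the lysosomal protease cathepsin D (0.60 ± 0.15).

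**Figure D2:**
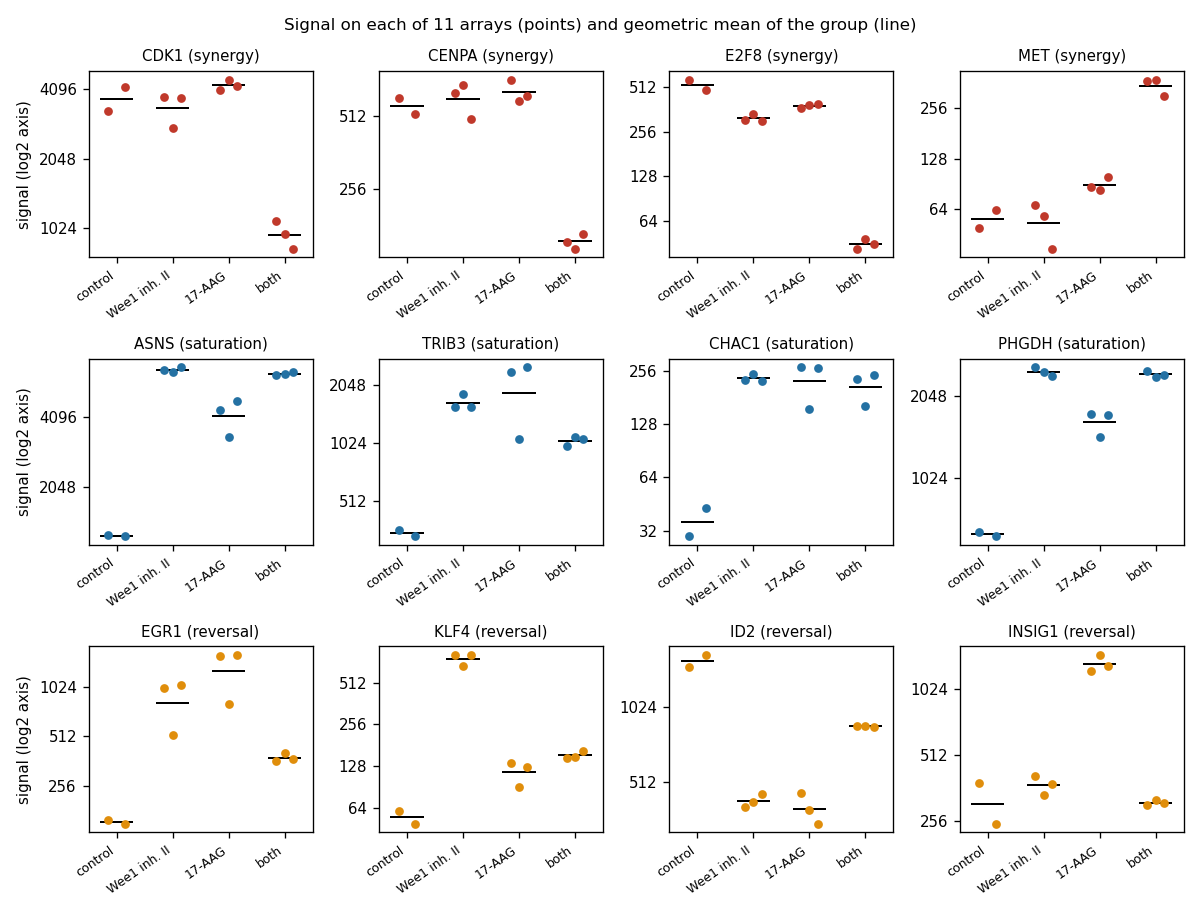
Signal on each of the 11 arrays (y axis, log2-spaced) for 12 genes in control, Wee1 inhibitor II, 17-AAG and both drugs, with a line at the geometric mean of each group. CDK1, CENPA and E2F8 were lowest and MET highest with both drugs, ASNS and PHGDH with both drugs stood at the level of Wee1 inhibitor II alone, and KLF4 and INSIG1 with both drugs lay far below the single drug that had raised them most.

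Saturation held 425 genes that each drug raised and 281 that each drug lowered. The 425 had median changes of 1.02 with Wee1 inhibitor II and 0.83 with 17-AAG and 0.99 with both drugs, where the median sum was 1.86. The 281 had medians of -0.70 and -0.64 for the single drugs and -0.65 for both, with a sum of -1.35. Targets of ATF4, the transcription factor made when amino acid shortage or unfolded proteins slow translation, were 19 of the 425 on the rising side. Of 41 members in that list 35 rose with Wee1 inhibitor II, 29 with 17-AAG and 33 with both. The interaction was called for 26 (63.4%, against 23.1% of all members), 24 lower and 2 higher, with 19 in saturation and a median of -0.85. Without control replicate 1 the counts of 26 and 19 were 16 and 11, and without control replicate 3 they were 17 and 12.

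The ASNS promoter holds the element that ATF4 is known to bind with C/EBP partners, and it is shown because ASNS with both drugs stood at the level of Wee1 inhibitor II alone. The element TGATGNAA is in capitals in the RefSeq sequence (GRCh38.p14), which runs 5′ to 3′ along the gene and ends at the base before its start.
ASNS (chr7:97872409-97872508, minus strand): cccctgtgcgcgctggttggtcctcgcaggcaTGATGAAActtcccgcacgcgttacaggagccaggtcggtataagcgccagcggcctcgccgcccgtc
Over the 250 bases before the start, on both strands, TGATGNAA was found in 5 of 36 ATF4 list promoters (13.9%), in 1.37% of members' and in 2.31% of all.

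ASNS, asparagine synthetase, read 1274 and 1263 in control, 6478, 6356 and 6685 with Wee1 inhibitor II, 4389, 3368 and 4786 with 17-AAG and 6173, 6270.0 and 6358 with both drugs. The combination arrays overlapped those of Wee1 inhibitor II and lay above those of 17-AAG. Its change was 2.36 with Wee1 inhibitor II, 1.71 with 17-AAG and 2.30 with both, an interaction of -1.76 ± 0.18 (adjusted p = 0.00156). PHGDH, the first enzyme of serine synthesis, read 651 and 630.0 in control, 2606, 2509 and 2429 with Wee1 inhibitor II, 1759.8, 1446 and 1750.0 with 17-AAG and 2529, 2410.2 and 2449 with both (interaction -1.39 ± 0.14 (adjusted p = 0.00131)). In both genes the combination was called higher than 17-AAG and was not called different from Wee1 inhibitor II. With the mean of its probe sets the ASNS interaction was -1.95 and was not called (adjusted p = 0.181).

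Several other genes of this stress response had their highest group mean with a single drug. For TRIB3, CHAC1 and DDIT4 the combination was not called different from either single drug. TRIB3, a pseudokinase that restrains ATF4 signalling, read 363 and 338 in control, 1575, 1848 and 1589 with Wee1 inhibitor II, 2396, 1074 and 2541 with 17-AAG and 996, 1102 and 1076 with both drugs. With an interaction of -3.07 ± 0.44 (adjusted p = 0.00489) it was the largest of the saturation genes with 32 or more in every group. CHAC1, which breaks down glutathione, read 29.8 and 43.1 in control, 229, 245 and 225 with Wee1 inhibitor II, 269, 157 and 265 with 17-AAG and 231, 161 and 244 with both, so that its 3 treated groups overlapped (interaction -2.80 ± 0.38 (adjusted p = 0.0041)). DDIT4, an inhibitor of mTORC1, had an interaction of -2.11 ± 0.44 (adjusted p = 0.0204), and this call was lost without either control array. DDIT3, the factor CHOP, went further and was sorted to reversal: 201 and 192 in control, 397, 644 and 439.8 with Wee1 inhibitor II, 937, 418 and 926 with 17-AAG and 333, 308 and 258 with both (interaction -2.56 ± 0.49 (adjusted p = 0.014)). ATF3 (-2.44 ± 0.26 (adjusted p = 0.00165)) and the alanyl-tRNA synthetase gene AARS1 (-1.66 ± 0.18 (adjusted p = 0.0018)) did so too. Among the 17-AAG arrays, replicate 2 was the lowest for TRIB3, CHAC1, DDIT3, DDIT4, ATF3 and ASNS. Without it the interaction of TRIB3 was -3.47. The ATF4 list's 2 higher members, the transporter gene SLC7A5 and the proline synthesis gene ALDH18A1, had not followed the list: they changed by -0.66 and -0.40 with Wee1 inhibitor II (interactions 0.63 ± 0.16 and 0.66 ± 0.11).

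Other genes at the head of the saturation ranking came from no single list. TSC22D3, the glucocorticoid-induced leucine zipper, had group means of 76.3 in control, 611 with Wee1 inhibitor II, 221 with 17-AAG and 311 with both (interaction -2.51 ± 0.44 (adjusted p = 0.0106)). IMMP2L, a mitochondrial inner membrane peptidase, stood at 72.5, 417, 413 and 528 in the same order of groups (-2.17 ± 0.25 (adjusted p = 0.0022)). RAC3, a small GTPase, had an interaction of -2.06 ± 0.37. ZSCAN5A, a zinc finger gene that each drug lowered, had one of 2.02 ± 0.36. The interaction of ZFTRAF1, -2.005 ± 0.36, turned to 0.19 with the mean of its probe sets, and TSC22D3, IMMP2L and ZSCAN5A were not called under that setting.

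Some proteasome genes and ID1 were on the falling side. Of 29 proteasome genes 15 fell with Wee1 inhibitor II, 16 with 17-AAG and 16 with both, and their medians were -0.34, -0.43 and -0.39. The interaction was called for 8 (27.6%, near the 23.1% of all members), all higher, 7 of them among the 281 in saturation and ADRM1 in reversal (median 0.43), but this count was 3 without control replicate 1 and 2 without control replicate 3. It was 13 without 17-AAG replicate 2, and 4 or 5 when any other array but Wee1 inhibitor II replicate 2 was left out, 3 with arrays centred on their medians, and 5 with the replicate block or the mean of probe sets. PSMD12, a lid subunit, read 2744 and 2857 in control, 1565, 1669.7 and 1566 with Wee1 inhibitor II, 1301, 1564 and 1256 with 17-AAG and 1459.7, 1487 and 1444 with both drugs (interaction 0.91 ± 0.14 (adjusted p = 0.00627)). ID1, which keeps helix-loop-helix factors from binding DNA, changed by -1.64 with Wee1 inhibitor II, -3.36 with 17-AAG and -3.28 with both (interaction 1.72 ± 0.30 (adjusted p = 0.00953)), so the combination stood at the level of 17-AAG alone.

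Reversal was the largest sort. Of its 803 genes 371 had been called only with Wee1 inhibitor II, 197 only with 17-AAG and 235 with both single drugs. Adding 17-AAG turned back the change made by Wee1 inhibitor II in 530, adding Wee1 inhibitor II turned back that made by 17-AAG in 339, and 66 of these were turned back from each. With both drugs 496 were not called against control and 87 were called on the other side of it. The 443 genes that had been raised changed by a median of 0.63 with Wee1 inhibitor II, 0.46 with 17-AAG and 0.13 with both, and the 360 that had been lowered by -0.54, -0.35 and -0.11.

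Genes driven by the MAPK pathway and the immediate early genes, which respond to growth signals within minutes, were mostly reversed. Of 28 members 20 rose with Wee1 inhibitor II and 13 with 17-AAG, but 8 rose and 5 fell with both drugs. The interaction was called for 23 (82.1%, against 23.1% of all members), all lower, 16 of them in reversal, with a median of -1.26. With 1 array left out the count of 23 ran from 17 to 23. EGR1, an immediate early zinc finger factor, read 159 and 150.3 in control, 1003, 518 and 1046 with Wee1 inhibitor II, 1584, 806 and 1599 with 17-AAG and 363, 402 and 373 with both drugs. Its interaction of -4.14 ± 0.50 (adjusted p = 0.00248) was the largest of all members with 32 or more in every group, and the combination arrays lay below every single-drug array and above the controls. KLF4 read 60.9 and 49.2 in control, 813, 675 and 809.5 with Wee1 inhibitor II, 134, 90.6 and 127 with 17-AAG and 146, 149.96 and 164 with both drugs, so that adding 17-AAG lowered it to near the level of 17-AAG alone (interaction -3.39 ± 0.25 (adjusted p = 0.000542)). JUN, a subunit of AP-1, read 239 and 225 in control, 1219, 926 and 1309 with Wee1 inhibitor II, 496, 262 and 411 with 17-AAG and 219, 215 and 228 with both, which overlapped the controls (interaction -3.07 ± 0.34 (adjusted p = 0.00191)). SPRY2, a feedback inhibitor of receptor tyrosine kinase signalling, passed beyond control: 1398 and 1359 in control, 2484, 2322 and 2422 with Wee1 inhibitor II, 2023, 1858 and 2157 with 17-AAG and 901, 818 and 740.4 with both (interaction -2.10 ± 0.14 (adjusted p = 0.000507)). Other feedback and output genes of this pathway moved the same way, the ETS factor gene ETV5 at -1.19 ± 0.13 and the phosphatase gene DUSP6 at -1.06 ± 0.18, while DUSP4 (-1.25 ± 0.23) met the rule for synergy.

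**Figure D3:**
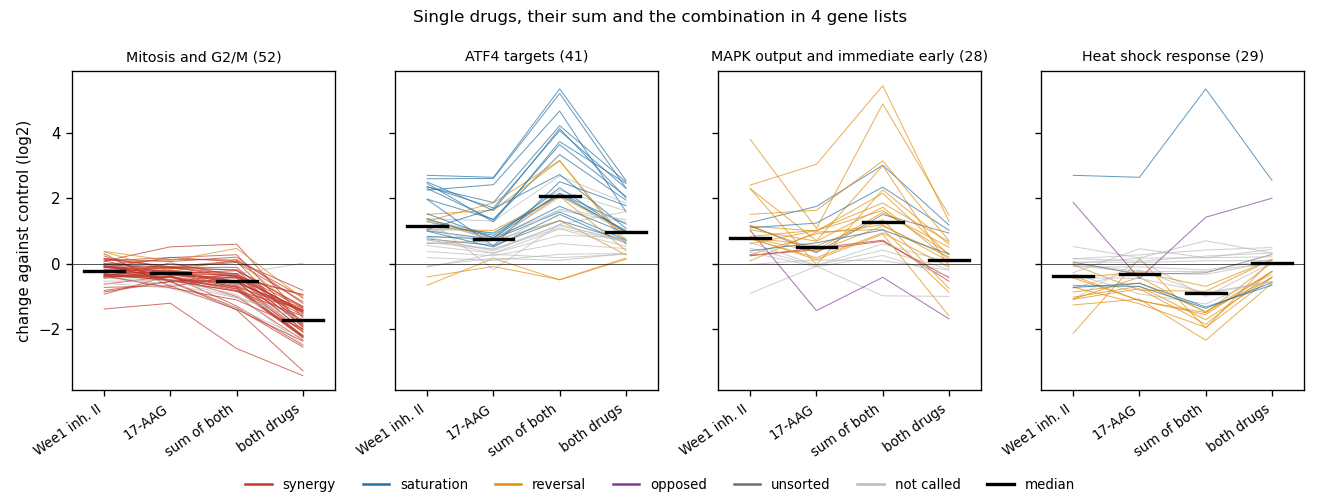
Change against control (y axis, log2) with Wee1 inhibitor II, with 17-AAG, as the sum of these, and with both drugs, 1 line per member of 4 gene lists coloured by sort, with black bars at the medians. In mitosis and G2/M the median fell from -0.53 for the sum to -1.72 with both drugs, in the ATF4 targets and the MAPK genes it was lower with both drugs than for the sum, and in the heat shock response it was near 0 with both drugs.

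Several of the strongest reversals were genes that Wee1 inhibitor II had raised from a low level. SERPINA3, an acute-phase protease inhibitor, read 58.1 and 48.2 in control, 1444, 1165 and 1408 with Wee1 inhibitor II, 195, 125 and 197 with 17-AAG and 299, 311 and 317 with both drugs (interaction -3.78 ± 0.28 (adjusted p = 0.000542)). NNMT, nicotinamide N-methyltransferase, read 52.3 and 29.6 in control, 748, 741 and 779 with Wee1 inhibitor II, 58.3, 42.9 and 56.7 with 17-AAG and 94.1, 111 and 117 with both (interaction -3.23 ± 0.32 (adjusted p = 0.00131)). In both genes the arrays with both drugs lay above the 17-AAG arrays and well below those of Wee1 inhibitor II. RUNX2, a Runt family transcription factor, had group means of 58.1 in control, 413 with Wee1 inhibitor II, 180.0 with 17-AAG and 99.5 with both (interaction -3.69 ± 0.23 (adjusted p = 0.000378)). With the mean of its probe sets the RUNX2 interaction was -0.58 and was not called (adjusted p = 0.317). NOX4, an NADPH oxidase, was raised most by 17-AAG, to 677, and stood at 328 with both drugs, close to the 361 of Wee1 inhibitor II alone and above the 70.2 of control (interaction -3.41 ± 0.33 (adjusted p = 0.0013)). IQGAP3, an IQ motif scaffold protein, rose with Wee1 inhibitor II but fell below control with both: 232 and 256 in control, 526, 549 and 591 with Wee1 inhibitor II, 331, 277 and 299 with 17-AAG and 70.5, 61.0 and 74.1 with both (interaction -3.33 ± 0.16 (adjusted p = 0.000176)). IFITM1, an interferon-induced membrane protein, showed an interaction of -2.44 ± 0.30. It was a member only through the group given Wee1 inhibitor II, which itself favours a lower interaction. MT2A, a metallothionein, was raised by Wee1 inhibitor II alone (1.22) and not by both drugs (-0.31), an interaction of -1.17 ± 0.15 (adjusted p = 0.00292).

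In the sterol genes the rises came with the other drug. Among 23 members of the cholesterol synthesis list 12 rose with 17-AAG, 1 rose and 8 fell with Wee1 inhibitor II, and 3 rose and 7 fell with both drugs. All 7 called members were lower, 6 in reversal and ACAT2 in synergy (median -0.47). The 7 are 30.4% of the list, near the 23.1% of all members, and 4 were in reversal without either control array. INSIG1, the sterol sensor that holds SREBP in the endoplasmic reticulum, read 379 and 247 in control, 412, 335 and 379 with Wee1 inhibitor II, 1248, 1476 and 1310.5 with 17-AAG and 301, 319 and 308 with both drugs. Its combination arrays lay within the range of the controls, and its interaction was -2.41 ± 0.24 (adjusted p = 0.00135). SREBF1, which encodes the SREBP-1 factor, changed by 1.71 with 17-AAG, 0.78 with Wee1 inhibitor II and 0.73 with both (interaction -1.76 ± 0.17 (adjusted p = 0.00118)), and MSMO1, a sterol oxidase, had an interaction of -1.08 ± 0.16 (adjusted p = 0.00545). With the mean of its probe sets SREBF1 was at -1.51 and was not called (adjusted p = 0.0531).

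Falls were taken back too, above all in the heat shock response. The chaperone genes of this list are driven by HSF1 and are known to be induced when Hsp90 is blocked. Of the 36 genes listed 30 were tested, and HSPA1A, HSPA1B, HSPA8 and AHSA1 were among those that were not. On these arrays 14 of the list's 29 members fell and 2 rose with 17-AAG. One that rose was CHAC1 (2.64), the gene for glutathione breakdown described above, which is no chaperone gene. With Wee1 inhibitor II 14 fell and 3 rose, and with both drugs 7 fell and 5 rose. The interaction was called for 16 of 29 (55.2%, against 23.1% of all members). Of these 15 were higher and 1, CHAC1, lower, with 11 in reversal, and the median of the list was 0.67. With 1 array left out, 10 to 13 were in reversal. The letters of the heat shock element, GAANNTTC, lie in the promoters of CHORDC1 and HSPB8, which are shown because both were lowered by the single drugs and came back with the combination. These RefSeq sequences (GRCh38.p14) run 5′ to 3′ along the gene to the base before its start, with the element in capitals.
CHORDC1 (chr11:90223050-90223149, minus strand): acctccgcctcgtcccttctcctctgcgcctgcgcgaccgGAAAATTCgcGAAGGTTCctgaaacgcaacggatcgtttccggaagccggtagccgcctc
HSPB8 (chr12:119178831-119178930, plus strand): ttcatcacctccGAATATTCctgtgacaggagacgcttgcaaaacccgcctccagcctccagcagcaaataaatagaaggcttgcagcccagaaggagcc
In the 250 bases before the start GAANNTTC was found on either strand in 8 of 26 heat shock list promoters (30.8%), in 4.55% of those of reversal genes that went higher, in 3.93% of members' and in 4.77% of all.

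CHORDC1, an Hsp90 partner, read 1836 and 1764 in control, 768, 745 and 742 with Wee1 inhibitor II, 787, 904 and 868 with 17-AAG and 1145, 1156 and 1276 with both drugs. The combination lay between the controls and both single drugs with no overlap (interaction 1.74 ± 0.12 (adjusted p = 0.000542)), and with the mean of its probe sets the interaction was 1.57 and was not called (adjusted p = 0.184). DNAJB1, an Hsp40 co-chaperone, read 1197 and 1186 in control, 737, 685 and 754 with Wee1 inhibitor II, 480.1, 564 and 489.6 with 17-AAG and 874, 885 and 908 with both (interaction 1.52 ± 0.13 (adjusted p = 0.000831)). HSPA4L, an Hsp110 family member, was lowered by Wee1 inhibitor II alone and restored with both: 154 and 151 in control, 37.2, 28.2 and 40.9 with Wee1 inhibitor II, 170.0, 177 and 162 with 17-AAG and 168, 163 and 168 with both (interaction 2.09 ± 0.20 (adjusted p = 0.00117)). The small heat shock protein gene HSPB8 had an interaction of 1.26 ± 0.11 (adjusted p = 0.000961). The genes of Hsp90 itself were not called: HSP90AA1 read 10929 and 11120.1 in control, 9814, 10801 and 10407 with Wee1 inhibitor II, 9209, 11305 and 10522 with 17-AAG and 11960.4, 12754 and 11458 with both (interaction 0.32 ± 0.14 (adjusted p = 0.21)), and HSP90AB1 had 0.37 ± 0.12 (adjusted p = 0.0902). HSF1 was at 0.03 ± 0.26 (adjusted p = 0.961).

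ID2 and ID3, relatives of ID1, showed the largest reversals upward among genes with 32 or more in every group. ID2 read 1492 and 1674 in control, 405, 424 and 455 with Wee1 inhibitor II, 460.4, 395 and 346 with 17-AAG and 862, 863 and 856 with both drugs, so that the combination lay above each drug alone and below control (interaction 3.000 ± 0.17 (adjusted p = 0.000281)). ID3 read 1040.0 and 958, 143, 159.9 and 156, 92.7, 105 and 84.1 and 132, 140.0 and 137 in the same groups. It fell as far with both drugs (-2.87) as with Wee1 inhibitor II (-2.71) and was called higher than with 17-AAG (0.54), which made it a reversal by the rule (interaction 3.25 ± 0.15 (adjusted p = 0.000176)).

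The drugs opposed each other in 56 called genes, 28 of them higher and 28 lower. Pigment cell genes formed 6 of these. Of 10 pigment cell members 7 fell with Wee1 inhibitor II and 8 rose with 17-AAG and with both drugs. The interaction was called for 7 of the 10 (70%, against 23.1% of all members), all higher (median 0.80). MLANA, a melanosome protein, read 6770.0 and 7331 in control, 3198, 2865 and 3232 with Wee1 inhibitor II, 8923, 9687 and 9208 with 17-AAG and 9373, 9916 and 9536 with both drugs, which overlapped the 17-AAG arrays (interaction 1.24 ± 0.12 (adjusted p = 0.0013)). MITF, the master factor of melanocytes, changed by -0.77 with Wee1 inhibitor II, 0.41 with 17-AAG and 0.62 with both (interaction 0.98 ± 0.15 (adjusted p = 0.00657)). CXCL8, the chemokine interleukin 8, ran the other way, at 91.4 and 88.1 in control, 705, 753 and 648 with Wee1 inhibitor II, 26.0, 28.7 and 24.02 with 17-AAG and 62.2, 72.0 and 71.8 with both (interaction -1.58 ± 0.15 (adjusted p = 0.0013)). CXCL8 was a member only through the group given Wee1 inhibitor II, so the member rule itself favours a lower interaction. WNT5A (-1.82 ± 0.19 (adjusted p = 0.00163)), a secreted Wnt ligand, was likewise raised by Wee1 inhibitor II alone (1.80) and lowered by 17-AAG (-0.53) and by both (-0.55). CCN1 (-1.47 ± 0.17 (adjusted p = 0.00241)), a matrix protein and YAP target, changed by 2.04, -0.59 and -0.02 in that order. GALNT3 (1.82 ± 0.16 (adjusted p = 0.000961)), a glycosyltransferase gene, and PPARGC1A (1.56 ± 0.14 (adjusted p = 0.00112)), a coactivator of mitochondrial genes, were lowered by Wee1 inhibitor II, raised by 17-AAG and stood between the 17-AAG level and that of Wee1 inhibitor II with both. In linear signals the interactions of GALNT3, PPARGC1A and the melanocyte channel gene TRPM1 (1.202 ± 0.17 (adjusted p = 0.00447)) changed sign. With the mean of their probe sets the interaction was not called for GALNT3 (0.68, adjusted p = 0.209), PPARGC1A (1.71, adjusted p = 0.372) or TRPM1 (0.36, adjusted p = 0.529). The count of 56 was 17 without either control array, 35 without 17-AAG replicate 1 and 36 without 17-AAG replicate 3. The count of 6 pigment genes in this sort was 1 without control replicate 1, 2 without control replicate 3 and 3 without 17-AAG replicate 3. It was 2 with arrays centred on their medians, and 3 with the replicate block or the mean of probe sets.

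Few genes of the intrinsic apoptotic pathway were called for the interaction. Of 17 members among the pro-apoptotic BCL2 family and apoptosome genes, 1 was called (5.88%, against 23.1% of all members, median -0.07). This was PMAIP1, which encodes NOXA, and it read 413 and 436 in control, 742, 826 and 779 with Wee1 inhibitor II, 738, 557 and 701 with 17-AAG and 462, 439 and 459.8 with both drugs. Each drug raised it and the combination arrays were back near control (interaction -1.42 ± 0.17 (adjusted p = 0.00236)). BCL2L11, which encodes the BH3-only protein BIM, read 80.8 and 81.2 in control, 242, 137 and 177 with Wee1 inhibitor II, 267, 203 and 354 with 17-AAG and 297, 331 and 368 with both. It rose with each drug and was highest with both, by 2.03, but its interaction was not called (-0.85 ± 0.37 (adjusted p = 0.204)). Those of BAX (0.18 ± 0.20 (adjusted p = 0.666)), BAK1 (0.40 ± 0.19 (adjusted p = 0.232)) and CASP9 (-0.07 ± 0.18 (adjusted p = 0.857)) were not called either. Of 11 anti-apoptotic genes 2 were called (18.2%, near the 23.1% of all members), BIRC5 in synergy and BAG1 in saturation (0.82 ± 0.15). With the mean of its probe sets BAG1 was not called (0.71, adjusted p = 0.05002). BCL2 rose with each drug and by 0.90 with both, with no called interaction (-0.24 ± 0.14 (adjusted p = 0.36)). The interactions of BCL2L1 (-0.39 ± 0.26 (adjusted p = 0.418)) and MCL1 (-0.48 ± 0.14 (adjusted p = 0.0702)) were not called. CDKN1A, the p21 gene, was dim, with group means of 49.4 to 113, and its interaction was not called (-1.59 ± 0.48 (adjusted p = 0.072)). HSPA8 and BBC3 were not analysed here.

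**Figure D4:**
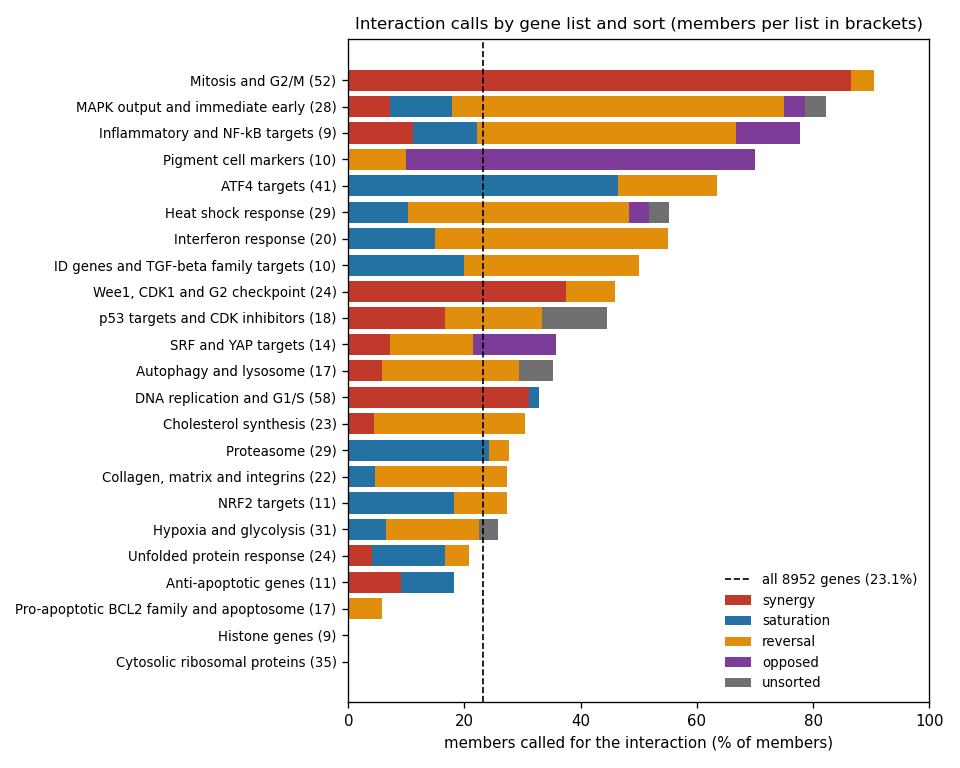
Share of each list's members called for the interaction (x axis, percent), split by sort, for lists with 9 or more members (number in brackets), with a dashed line at the 23.1% of all 8952 genes. Mitosis and G2/M stood at 90.4%, nearly all synergy, the MAPK genes at 82.1% and the ATF4 targets at 63.4%, while the ribosomal protein and histone genes had none called.

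Some lists moved with a drug but had few or no called interactions, which does not show that there was none. Of 35 cytosolic ribosomal protein genes 27 rose with Wee1 inhibitor II and 21 with both drugs, and limma called the interaction of 0, with 2 at an unadjusted p under 0.05 (median -0.09). Of 9 histone genes 7 rose with Wee1 inhibitor II and 8 with both drugs, and limma again called 0, with 2 at an unadjusted p under 0.05 (median 0.29). Among 24 genes of the unfolded protein response 5 were called (20.8%, near the 23.1% of all members). Leaving out any 1 of the 11 arrays moved that count by over 1.5 times, from 1 to 8.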

How the data were processed

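The authors deposited 1 intensity for each probe set on each biotin-labelled Affymetrix array. Partek 6.5 and RMA appear in the submitters' processing notes. The intensities run linearly from 0.0212 to 17908, every array has a 2% trimmed mean of 150.02, and array medians lie between 17.7 and 23.1, so they lack the log2 scale of RMA output and were log2 transformed here without further normalisation. Background correction is not given in the sources used here. Of 54675 probe sets, 41091 carried 1 symbol, 1801 several and 11721 none, and 62 were array controls. The probe set with the highest mean was kept per symbol.

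Group means were fitted with limma 3.58.1 in R 4.3.3 (7 residual degrees of freedom), with Benjamini-Hochberg adjustment over all 19775 genes and calls at an adjusted p under 0.05. Errors are standard errors of this fit unless said to be SD, and fold values are of geometric means. Nothing says that replicates were separate cultures, so the spread behind each p-value may be only technical.

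A called gene was synergy where both drugs were also called beyond each single drug in the same direction and no single drug was called against it. It was reversal where a single drug's change was called, the interaction ran against it, and both drugs were called against that drug in the interaction's direction. It was saturation where both single drugs were called in 1 direction and the interaction ran against them without reversal, and opposed where they were called in opposite directions. Genes with 32 or more in every group were named by rank of interaction, 8 for each main sort and 4 for the rest, with up to 4 members of each list and the drug target and apoptosis genes. Other list members named were chosen after their values were seen. The members, the lists and the rules were chosen with earlier results of these data known. The fit was tested on simulated data. Alternatives were other scalings, filters, empirical Bayes settings, probe set rules and thresholds, linear signals, a replicate block, control replicate 2 included, and each array left out in turn. Counts over lists under these settings were added after seeing the data.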

Additional observations from a re-analysis of the deposited data

Results flagged for a closer look

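In 220 of the 8952 genes the effect of Wee1 inhibitor II was called in opposite directions without and with 17-AAG, 129 of them raised alone and lowered on top of 17-AAG and 91 the reverse, with the interaction as the test of that difference. The named genes that rose alone were EGR1 (interaction -4.14), RUNX2 (-3.69), NOX4 (-3.41), IQGAP3 (-3.33), ATF3 (-2.44), SPRY2 (-2.10), SREBF1 (-1.76), AARS1 (-1.66), TOP2A (-1.65), LIF (-1.65), JUND (-1.59), PMAIP1 (-1.42), GADD45B (-1.19), ETV5 (-1.19) and ITGB5 (-1.17). Those that fell alone were ID3 (3.25), ID2 (3.000), ESRP1 (1.95), CHORDC1 (1.74), DNAJB1 (1.52), CTSL (1.30), GPR143 (1.15), NEU1 (1.005) and ADRM1 (0.80).

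Control replicate 2, which no comparison used, carried signals that the other arrays lacked. EPCAM read 1096 on it against 5.33 to 26.2 on the 11 others, HOXB13 2087 against 2.14 to 11.3, and KRT8 615 against 25.8 to 45.5. MLANA, at 2865 to 9916 on the 11 arrays, read 2.67 there. PMEL read 2.90, STAT3 7.54 and CTNNA1 1.57 on control replicate 2. Its median signal was 20.8, within the 17.7 to 23.1 of the 11 others. It correlated with them at r of 0.825 to 0.833, against 0.913 or more among the 11.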

How the results depend on the processing

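The counts below are of genes called, then of those in synergy, saturation, reversal and the opposed sort, which were 2065, 351, 706, 803 and 56. Their lowest and highest values with 1 of the 11 arrays left out were 1138 and 1973, 242 and 286, 289 and 713, 462 and 796, and 17 and 48. They were 101, 31, 32, 34 and 0 with control replicate 2 included (23 higher and 78 lower), 1086, 222, 335, 435 and 20 with arrays centred on their medians, 889, 185, 284, 330 and 26 with probe sets averaged per gene, and 774, 179, 228, 290 and 14 at an adjusted p under 0.01. Trended and robust empirical Bayes gave 3185 called, 1306 in reversal and 136 opposed. Without the dimmest 40% of genes these were 3197, 1316 and 140. The opposed sort held 115 with signals below 32 set to 32 and 112 with adjustment over bright genes alone. Sorting by changes of at least 1.5-fold left 384 in reversal and 26 opposed.

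No pairing by replicate number was seen: deviations of same-numbered arrays correlated at -0.13 to 0.08 over 15 pairs, against -0.16 to 0.16 for the 30 others. The 2 control arrays deviate from their mean as mirror images, so the values -0.16 and 0.16 are 1 correlation with both signs. The comparison cannot exclude pairing. With the replicate number as a block, 1319 genes were called, 245 in synergy, 458 in saturation, 519 in reversal and 32 opposed. No named gene's interaction changed sign under the block.

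Of 134 named genes, 13 changed sign with control replicate 2 included: PPARGC1A (-0.40), HSPB8 (-0.99), AJUBA (0.14), ID4 (-1.08), MMP8 (-0.59), MLANA (-2.55), SLC45A2 (-0.43), GPR143 (-1.79), TRPM1 (-1.68), HSF1 (-0.094), BCL2L1 (0.060), BAX (-0.22) and CASP9 (0.12). With the mean of probe sets 6 did: ZFTRAF1 (0.19), MCL1 (0.0085), MT1G (0.40), CYP1A2 (0.73), BCL2 (0.54) and BCL2L1 (0.092). In linear signals GALNT3 (-195), PPARGC1A (-73.8), RRM2 (676) and TRPM1 (-149) did. HSF1 ran from -0.11 to 0.18 and CASP9 from -0.14 to 0.027 with 1 array left out. The causes were not tested. Of the 111 named calls 18 were lost without control replicate 1 and 16 without control replicate 3. More of the 111 were lost, with the sign kept, under other settings. These were 33 with the mean of probe sets, 84 with control replicate 2 included and 30 at an adjusted p under 0.01. No detection calls were used, so dim signals have no measured background beside them.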

Other observations

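Immune genes split within their lists. Of 20 members of the interferon response 11 were called (55.0%, against 23.1% of all members), 8 lower and 3 higher, and that count was 5 without control replicate 1, 6 without control replicate 3 and 6 without both drugs replicate 1. It was 5 with the replicate block, and 6 with arrays centred on their medians or with the mean of probe sets. The membrane proteins IFITM1 and IFITM3 were lower (-2.44 ± 0.30 (adjusted p = 0.00259) and -1.26 ± 0.15 (adjusted p = 0.0023)), as was the class I antigen gene HLA-C (-0.72 ± 0.13 (adjusted p = 0.0103), not called with arrays centred on their medians), whereas IFIT3, which encodes a cytoplasmic protein of the antiviral response, was higher (0.88 ± 0.13 (adjusted p = 0.00599)). IFITM1 read 30.8 and 23.9 in control, 189.6, 139 and 146 with Wee1 inhibitor II, 79.0, 55.7 and 81.4 with 17-AAG and 65.1, 79.9 and 82.6 with both drugs. Its group mean reached the member limit only with Wee1 inhibitor II, which itself favours a lower interaction. Among 9 inflammatory and NF-kB members 7 were called, 6 of them lower, and the count was 4 when either control array, Wee1 inhibitor II replicate 1, 17-AAG replicate 3 or both drugs replicate 1 was left out. The 7 called are 77.8% of the list, against 23.1% of all members. The cytokine gene LIF was at -1.65 ± 0.21 (adjusted p = 0.00308). LIF was a member only through the group given Wee1 inhibitor II, which itself favours a lower interaction. The adhesion gene ICAM1 was at -0.93 ± 0.12 (adjusted p = 0.00372) and was not called with the mean of its probe sets (-0.79, adjusted p = 0.0689).

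Of 17 autophagy and lysosome members 6 were called (35.3%, against 23.1% of all members), 5 higher and 1 lower, with 3 of the higher ones in reversal. The count of 6 was 2 without control replicate 1 or with the replicate block, 3 with arrays centred on their medians or with the mean of probe sets, and 3 or 4 when any other array but Wee1 inhibitor II replicate 1 or both drugs replicate 2 was left out. The lower one was MAP1LC3B, whose protein marks autophagosomes (-0.49 ± 0.12 (adjusted p = 0.0353)), and its call was lost in 9 of the 11 fits that left out 1 array. CTSL, the protease cathepsin L, read 832 and 797 in control, 591, 549 and 581 with Wee1 inhibitor II, 661, 597 and 667 with 17-AAG and 1188, 1127 and 1024 with both drugs (interaction 1.30 ± 0.13 (adjusted p = 0.0013)). The neuraminidase gene NEU1 was at 1.005 ± 0.16 (adjusted p = 0.00714) and the galactosidase gene GLA at 0.78 ± 0.15 (adjusted p = 0.0137), which was not called without control replicate 1 or with the replicate block. ESRP1, an epithelial splicing factor, read 249 and 334 in control, 153, 142 and 206 with Wee1 inhibitor II, 287, 327 and 296 with 17-AAG and 728, 617 and 659 with both (interaction 1.95 ± 0.25 (adjusted p = 0.00316)). It was the called gene of the 2 epithelial and prostate members.

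Among called genes outside the sorts, DOCK11 (-1.88 ± 0.46 (adjusted p = 0.0365)) was lost in 9, GADD45A (-1.63 ± 0.40 (adjusted p = 0.0351)) in 10, PUS7L (1.34 ± 0.33 (adjusted p = 0.0352)) in 9 and HES4 (-1.29 ± 0.35 (adjusted p = 0.0491)) in 10 of the 11 fits that left out 1 array.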
